A study of Rattus norvegicus with 24 samples.

Results

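Skeletal muscle sarcomere and calcium genes were followed in bone around degradable polymer implants in the rat tibia. The list holds 33 genes, and a gene counted as measured where a probe set carries its symbol and no other. This held for 26 of the 33, each with 1 probe set, out of 18166 named genes and 36495 probe sets. The members were chosen by their log2 signals on these arrays, a few of which had been seen to be high in muscle genes, so levels are given as a description and not tested against that choice. Not measured were Myh1, Myh2, Myh4, Mylpf, Atp2a1, Cacna1s and Tcap.

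The animals were male Sprague Dawley rats with no genetic change given in the labels, and their age is not given there. Each of 12 rats carried plugs of poly(lactide-co-glycolide acid), PLGA, loaded with lithium carbonate (Li+) or, as Ctrl, with sodium carbonate, so both groups share the polymer, the surgery and a carbonate salt. Bone around the implants was taken with a hollow trephine drill at day 7 in 6 rats (4, 5, 7, 10, 11 and 15) and at day 28 in 6 rats (21, 23, 27, 28, 29 and 30). This gave 4 groups of 6 arrays, 24 in all, with 1 Li+ and 1 Ctrl array per rat. Values are log2 signals after RMA, a method that corrects background and normalizes between arrays, so 1 unit is a doubling of signal.

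Skeletal muscle contracts as myosin of the thick filaments pulls on actin of the thin filaments, both anchored at the Z-disc. Calcium released from the sarcoplasmic reticulum through the ryanodine receptor binds troponin C and so lets myosin reach actin. Fast and slow fibers use different versions, or isoforms, of many of these proteins. Muscles of the hind limb attach to the tibia, while bone cells are not known for making these proteins in quantity.

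Most members were at even levels on 21 arrays and far higher on 3 arrays, all from day 28. These were the Ctrl arrays of rats 23 and 29 and the Li+ array of rat 27. For each gene, the difference of an array from the gene's median over the 24 arrays is used below, and the mean of this difference over the 26 members is called the score of that array. The score was 4.42 on the Ctrl array of rat 23, 3.97 on the Li+ array of rat 27 and 2.61 on the Ctrl array of rat 29, and lay between -0.16 and 0.64 on the other 21 arrays. On 24 of the 26 members all 3 arrays lay above every other array. The exceptions were Mylk2 and Tnnc1. Differences are given within a gene, since levels of different probe sets cannot be set against each other. In tissue RNA such as this, more muscle in a sample and more of this RNA per fiber cannot be told apart.

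**Figure D1:**
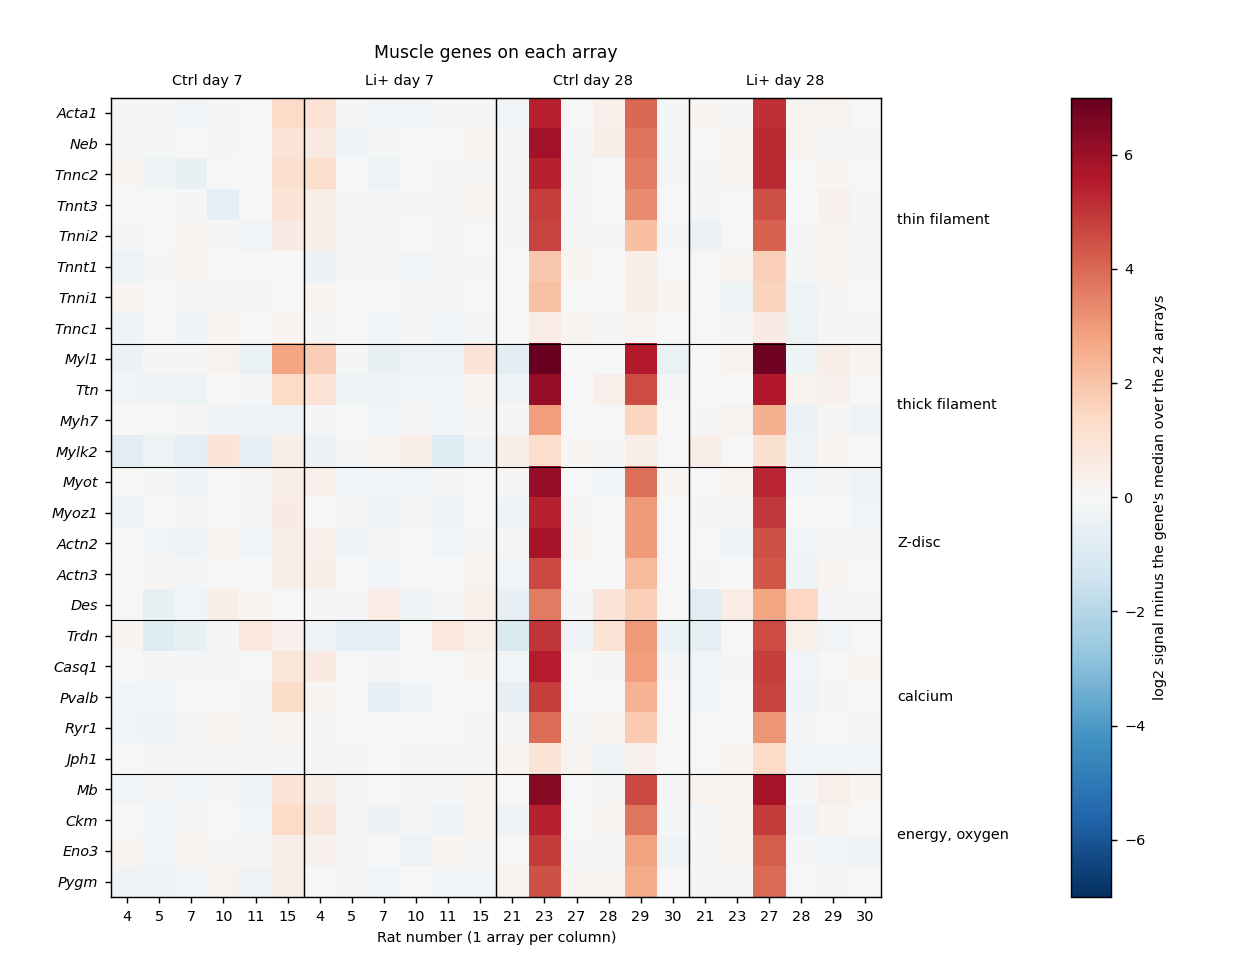
Each cell is the log2 signal of a gene minus its median over the 24 arrays, with genes in rows by role and arrays in columns by group and rat number. Dark red columns are the Ctrl day 28 arrays of rats 23 and 29 and the Li+ day 28 array of rat 27, and Myl1 and Ttn are paler red on the Ctrl day 7 array of rat 15 and the Li+ day 7 array of rat 4.

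Thin filament genes were high on these 3 arrays in their fast and general forms. Acta1, the actin of adult skeletal fibers, had log2 signals of 7.55, 7.61 and 9.07 (lowest, median and highest of 6) in Ctrl at day 7 and of 7.53, 7.60 and 8.71 with Li+ at day 7. At day 28 it had 7.55, 7.89 and 13.1 in Ctrl and 7.68, 7.89 and 12.8 with Li+. The medians of the 4 groups thus lay close together, 2 Ctrl arrays and 1 Li+ array of day 28 were high, and all groups overlapped. Against its median over all arrays, Acta1 was 43.0-fold higher on the Ctrl array of rat 23, 34.9-fold on the Li+ array of rat 27 and 16.2-fold on the Ctrl array of rat 29. Neb, the ruler protein nebulin along the thin filament, was 58.9-fold, 36.9-fold and 13.7-fold higher on the same arrays in that order. Of the fast troponins, Tnnc2, which binds calcium, was higher by 5.38, 5.23 and 3.58 on the log2 scale. Tnnt3, which ties troponin to tropomyosin, was 28.7-fold, 22.6-fold and 10.0-fold higher. Tnni2, the inhibitory subunit, was 26.3-fold, 17.3-fold and 4.32-fold higher. The slow troponins stood much lower, as described with the fiber types below.

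The 300 bases around the start site of 6 members of the thin filament, thick filament and energy genes are shown. These genes were high together on the 3 arrays. Each window shown holds a match to a motif named below, which not all members do. A promoter of this length, 250 bases before the start and 50 after it, was found for 21 of the 26 measured members in the RefSeq table for the assembly GRCr8. Sequences run 5′ to 3′ along the gene, in lower case, and capitals mark matches to 5 motifs. These are the E-box CAGCTG, which MyoD and myogenin can bind, the MCAT motif CATTCC and its reverse complement, the TATA box TATAAA on the gene's strand, and, by name, the MEF2 site and the CArG box of serum response factor on both strands.
Acta1, chr19:68784145-68784444, - strand: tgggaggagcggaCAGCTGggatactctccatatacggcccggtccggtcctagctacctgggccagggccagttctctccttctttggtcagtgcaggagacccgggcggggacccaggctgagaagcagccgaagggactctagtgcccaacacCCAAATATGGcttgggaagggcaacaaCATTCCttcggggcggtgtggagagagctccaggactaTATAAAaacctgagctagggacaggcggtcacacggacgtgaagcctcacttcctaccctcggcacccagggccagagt
Ckm, chr1:88189211-88189510, + strand: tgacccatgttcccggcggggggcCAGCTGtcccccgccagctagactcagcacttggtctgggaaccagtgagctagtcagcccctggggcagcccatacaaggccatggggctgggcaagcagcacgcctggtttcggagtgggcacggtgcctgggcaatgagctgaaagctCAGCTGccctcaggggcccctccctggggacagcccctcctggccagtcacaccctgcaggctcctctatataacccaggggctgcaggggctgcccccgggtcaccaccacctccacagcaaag
Pygm, chr1:213119555-213119854, + strand: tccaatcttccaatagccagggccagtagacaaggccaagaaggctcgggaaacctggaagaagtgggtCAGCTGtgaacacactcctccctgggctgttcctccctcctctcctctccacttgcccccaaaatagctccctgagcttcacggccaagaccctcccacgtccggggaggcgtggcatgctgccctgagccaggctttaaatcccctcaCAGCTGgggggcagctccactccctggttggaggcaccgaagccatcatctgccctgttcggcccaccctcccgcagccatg
Myl1, chr9:75897750-75898049, - strand: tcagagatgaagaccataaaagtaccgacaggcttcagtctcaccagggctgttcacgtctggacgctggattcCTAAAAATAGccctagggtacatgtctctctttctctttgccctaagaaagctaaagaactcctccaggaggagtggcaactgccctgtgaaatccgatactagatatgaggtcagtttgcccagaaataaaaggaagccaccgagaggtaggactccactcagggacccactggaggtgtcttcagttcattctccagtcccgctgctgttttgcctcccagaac
Ttn, chr3:82332061-82332360, - strand: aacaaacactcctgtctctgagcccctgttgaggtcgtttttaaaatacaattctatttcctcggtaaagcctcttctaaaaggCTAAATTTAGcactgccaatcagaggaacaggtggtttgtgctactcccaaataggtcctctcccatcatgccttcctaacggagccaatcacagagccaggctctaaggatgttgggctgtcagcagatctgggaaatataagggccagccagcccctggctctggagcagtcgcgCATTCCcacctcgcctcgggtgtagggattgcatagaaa
Myh7, chr15:32438145-32438444, - strand: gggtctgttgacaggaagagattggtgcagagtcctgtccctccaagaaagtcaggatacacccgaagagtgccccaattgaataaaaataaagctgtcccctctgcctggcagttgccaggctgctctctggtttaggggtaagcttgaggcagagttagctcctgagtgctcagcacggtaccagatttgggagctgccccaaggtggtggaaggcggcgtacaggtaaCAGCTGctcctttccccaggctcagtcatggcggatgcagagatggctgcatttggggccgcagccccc
Acta1 holds an E-box CAGCTG at -237, a CArG box at -94, an MCAT motif at -67 and a TATA box at -29 from its start, none of which overlap. Ckm has the E-box at -226 and -75, and Pygm at -181 and -32. The window of Myl1 shown, the one of its annotated starts with a match, has a MEF2 site at -176, as does Ttn at -166, and the window of Myh7 has an E-box CAGCTG at -19. Positions count from the start the table gives, which lies inside the RefSeq gene, by 9897 bases for Myl1, 1657 for Myh7, 79 for Ckm and 20 for Ttn from its 5′ end. For Myh7 and Myl1 these windows are therefore not the sequence before the outermost start of the gene. The E-box CAGCTG was found in 7 of 21 members (33.3%) and in 15.1% of all 33469 promoters of this length. A pair or more of them was found in 9.52% of members, namely Ckm and Pygm, and in 1.69% of all promoters. A MEF2 site was found in 14.3% of members against 3.29% of all, an MCAT motif in 14.3% against 14.2%, a CArG box in 4.76% (Acta1) against 1.64%, and a TATA box in 14.3% against 8.80%. A member counted where the window of any of its annotated starts matched, while the share of all counts each promoter singly. The percentages of members and of all promoters are thus not of the same unit, and a member with several starts had more chances to match. These matches describe the letters in the window, and binding was not measured.

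Thick filament genes held the member with the highest difference of all. Myl1, an essential light chain of fast myosin, had log2 signals of 5.63, 6.36 and 13.3 in Ctrl at day 28 and of 6.07, 6.57 and 13.2 with Li+ at day 28 (lowest, median and highest of 6). At day 7 they were 5.91, 6.34 and 9.10 in Ctrl and 5.85, 6.15 and 8.06 with Li+. All 4 groups overlapped. The fold over its median was 120.0 on the Ctrl array of rat 23, 111.0 on the Li+ array of rat 27 and 46.1 on the Ctrl array of rat 29. Ttn, the giant spring protein titin, was 72.0-fold, 49.5-fold and 24.1-fold higher on these arrays. Myh7, the slow myosin heavy chain also used in the heart, was 7.70-fold, 5.66-fold and 2.81-fold higher. Its sequence is like that of other myosins, so signal from these on its probes cannot be told apart from its own. Mylk2, the kinase of skeletal myosin light chains, was the thick filament member that stood apart least, at 2.34-fold, 2.13-fold and 1.41-fold, and its highest value on the other 21 arrays was above that on the Ctrl array of rat 29.

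The fast heavy chains Myh1, Myh2 and Myh4 have no probe set of their own. All 3 symbols occur together, with Myh3 and in 1 case Myh13, on 4 probe sets, which cannot be assigned to 1 gene. Of these, 2 were far higher on the 3 arrays, by 6.24, 5.48 and 4.47 for 1 and by 5.49, 5.94 and 3.11 for the other on the log2 scale (Ctrl rat 23, Li+ rat 27, Ctrl rat 29). The third was at 1.65, 0.29 and 0.19 and the fourth at 0.29, 0.52 and 0.27. Mylpf, the fast regulatory light chain, appears in the platform's annotation under its newer symbol Myl11 and was left out of the member counts. Myl11 was higher by 5.00, 4.27 and 2.88 on the log2 scale on the 3 arrays.

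Z-disc and cytoskeleton genes followed the filaments. Myot, or myotilin, which cross-links actin at the Z-disc, was 70.1-fold, 39.6-fold and 14.3-fold higher (Ctrl rat 23, Li+ rat 27, Ctrl rat 29), and its signal did not exceed 6.56 on the other 21 arrays. Actn2, the alpha-actinin of all striated fibers, was 54.0-fold, 22.5-fold and 7.88-fold higher. Actn3, the alpha-actinin of fast fibers, was 24.3-fold, 20.2-fold and 4.58-fold higher. Myoz1, or calsarcin-2, which links alpha-actinin to calcineurin in fast fibers, was 42.1-fold, 30.6-fold and 7.92-fold higher. Des, the intermediate filament desmin of every muscle type, was 12.3-fold, 6.66-fold and 3.15-fold higher. Its signal also varied on the other arrays, from 7.66 to 9.88, and was highest among them on the Li+ day 28 array of rat 28. That array had a score of -0.06.

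Calcium handling genes spanned a wide range. Casq1, calsequestrin of fast fibers, which stores calcium in the sarcoplasmic reticulum, had log2 signals of 5.71, 5.95 and 11.4 in Ctrl and of 5.69, 5.87 and 10.8 with Li+ at day 28 (lowest, median and highest of 6). The groups overlapped, with 1 Li+ array and 2 Ctrl arrays above the rest. The folds of Casq1 were 45.3, 28.7 and 7.48 (Ctrl rat 23, Li+ rat 27, Ctrl rat 29). Trdn, or triadin, which holds calsequestrin at the release channel, was 32.2-fold, 24.1-fold and 7.80-fold higher. Pvalb, the calcium buffer parvalbumin of fast fibers, was 28.8-fold, 26.2-fold and 5.37-fold higher. Ryr1, the release channel itself, was 14.9-fold, 8.40-fold and 3.59-fold higher. Jph1, or junctophilin, which tethers the reticulum to the surface membrane, was 1.92-fold, 2.60-fold and 1.24-fold higher. It is 1 of 2 members that were higher on the Li+ array of rat 27 than on the Ctrl array of rat 23, and the other is Tnnc1.

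Energy and oxygen genes of the list were high on the same arrays. Mb, the oxygen store myoglobin, had log2 signals of 6.88, 7.09 and 13.4 in Ctrl and of 6.88, 7.26 and 12.8 with Li+ at day 28 (lowest, median and highest of 6), against at most 7.95 at day 7. Its folds were 83.4, 55.5 and 24.2 (Ctrl rat 23, Li+ rat 27, Ctrl rat 29). Ckm, the creatine kinase of muscle, was 42.0-fold, 30.2-fold and 13.4-fold higher. Eno3, the muscle enolase of glycolysis, was 30.2-fold, 19.2-fold and 6.95-fold higher. Pygm, the muscle glycogen phosphorylase, was 22.1-fold, 15.5-fold and 6.03-fold higher.

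The 3 arrays differed from each other mainly in degree. The Ctrl array of rat 23 was above the Li+ array of rat 27 in 24 of 26 members, by a median of 0.47 on the log2 scale, and the latter above the Ctrl array of rat 29 in 26 of 26, by a median of 1.25. Spearman's rho across the 26 members was 0.951 between the arrays of rats 23 and 27, 0.945 between those of rats 23 and 29 and 0.960 between those of rats 27 and 29. These describe members measured on the same arrays, which share probes and base levels, and genes are not independent replicates. A difference of 2 on the log2 scale was passed on all 3 arrays by 18 members and one of 1 by 21. Of all 18166 named genes, 26 passed 2 and 54 passed 1 on all 3 arrays. Among the members, just inside the difference of 2 was Tnni2 with 2.11 on its lowest array, and just outside it was Ryr1 with 1.85.

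A lower tier was seen at day 7. On the Ctrl array of rat 15 the score was 0.64, and Myl1 was higher by 2.74, Ttn by 1.40, Ckm by 1.38, Acta1 by 1.35, Pvalb by 1.28 and Tnnc2 by 1.10 on the log2 scale. On the Li+ array of rat 4 the score was 0.33, with Myl1 higher by 1.70 and Tnnc2 by 1.22. These 6 members and these 2 were the only ones above their median by more than 1 on any day 7 array. Rat 15 was the highest Ctrl array of day 7 in 18 of 26 members, compared with 14.3% of all named genes, and rat 4 the highest Li+ array in 18 of 26, compared with 17.3%. The order of the members on the Ctrl array of rat 15 had a Spearman's rho of 0.720 with that on the Ctrl array of rat 23, 0.791 with that on the Li+ array of rat 27 and 0.789 with that on the Ctrl array of rat 29. The differences compared share the same medians over the 24 arrays. Des, Myh7, Jph1, Tnnt1, Tnni1, Tnnc1 and Ryr1 differed by 0.26 or less in size from their medians on the Ctrl array of rat 15.

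**Figure D2:**
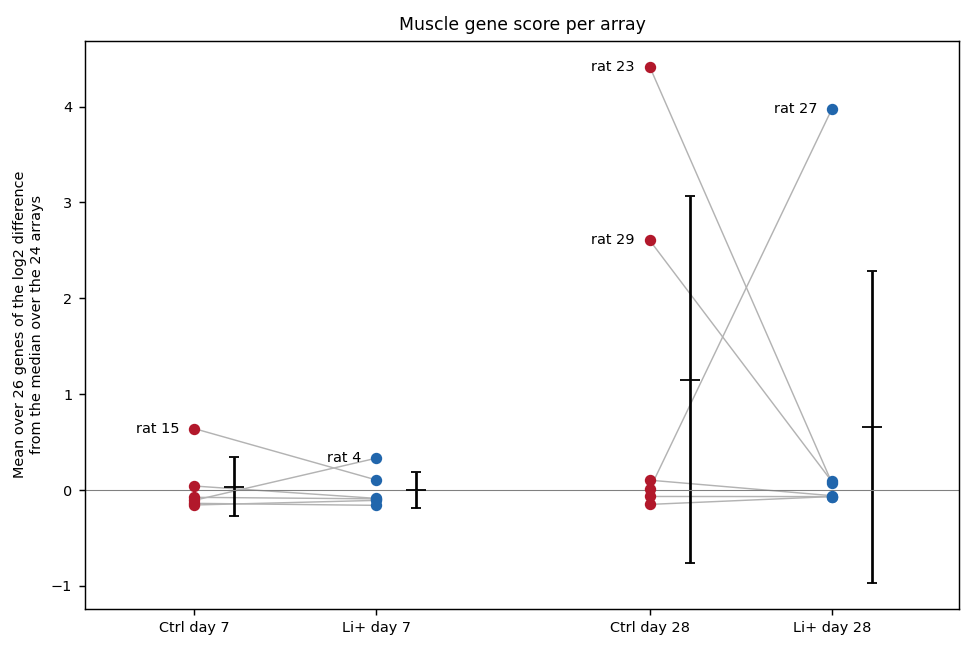
Each point is the score of 1 array, the mean over 26 genes of the log2 difference from the median over the 24 arrays. Grey lines join the Ctrl and Li+ arrays of a rat, and black bars give the mean ± SD of the 6 arrays of a group. The scores of rat 23 (4.42) and rat 29 (2.61) in Ctrl and of rat 27 (3.97) with Li+ lie far above the others of day 28.

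No rat had high values on both of its arrays. In rat 23 the Li+ array had a score of 0.08 beside 4.42 in Ctrl, and in rat 29 of 0.09 beside 2.61. In rat 27 the Ctrl array had a score of 0.01 beside 3.97 with Li+. Li+ was lower than Ctrl in 26 of 26 members in rats 23 and 29 and higher in 26 of 26 in rat 27. In the other 3 rats of day 28 the mean difference over the members was between -0.16 and 0.08. At day 7 it was between -0.54 in rat 15 and 0.44 in rat 4. Which leg or site an array came from is not in the labels, so their part in these differences was not tested.

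Fast fiber genes stood out more than slow fiber genes. The 6 fast members measured (Myl1, Tnnt3, Tnnc2, Tnni2, Actn3 and Pvalb) had a median difference of 4.85 on the Ctrl array of rat 23, of 4.60 on the Li+ array of rat 27 and of 2.88 on the Ctrl array of rat 29. For the 4 slow members (Myh7, Tnnt1, Tnnc1 and Tnni1) the medians were 1.98, 1.60 and 0.42. Fast minus slow was thus 2.87, 3.01 and 2.46 on the log2 scale, and on the other 21 arrays it was between -0.19 and 1.02, with the highest on the Ctrl day 7 array of rat 15. A gene with high signal without muscle, from other cells or from background on the array, gains less on the log2 scale, so a lower difference does not by itself mean less of that isoform.

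The listed isoform pairs of 1 protein kept this order where both genes were measured. Of 8 pairs listed, 5 had both genes measured. Troponin T of fast fibers, Tnnt3, was higher by 4.84, 4.50 and 3.33 (Ctrl rat 23, Li+ rat 27, Ctrl rat 29) and its slow partner Tnnt1 by 1.90, 1.65 and 0.43. The troponin I genes stood at 4.71, 4.12 and 2.11 for Tnni2 and at 2.07, 1.55 and 0.41 for slow Tnni1. Troponin C had the widest gap, with 5.38, 5.23 and 3.58 for Tnnc2 and 0.53, 0.60 and 0.15 for slow Tnnc1, the isoform of the heart as well. Calsequestrin stood at 5.50, 4.84 and 2.90 for Casq1 and 1.44, 0.67 and 0.14 for Casq2, the cardiac and slow form. The essential light chains differed least on the array of rat 23, with 6.91, 6.80 and 5.53 for Myl1 and 5.28, 3.94 and 2.86 for slow Myl3. In all 5 pairs the fast gene had the larger difference on all 3 arrays, by 1.63 to 4.85. Outside the listed pairs, myosin-binding protein C went the other way. Slow Mybpc1 was higher by 5.83, 4.82 and 3.47 and fast Mybpc2 by 4.47, 3.66 and 1.58, with the arrays in the same order. Atp2a2, the calcium pump of slow fibers that most other cells also use, was at 0.21, 0.01 and -0.01, while its fast partner Atp2a1 was not measured.

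**Figure D3:**
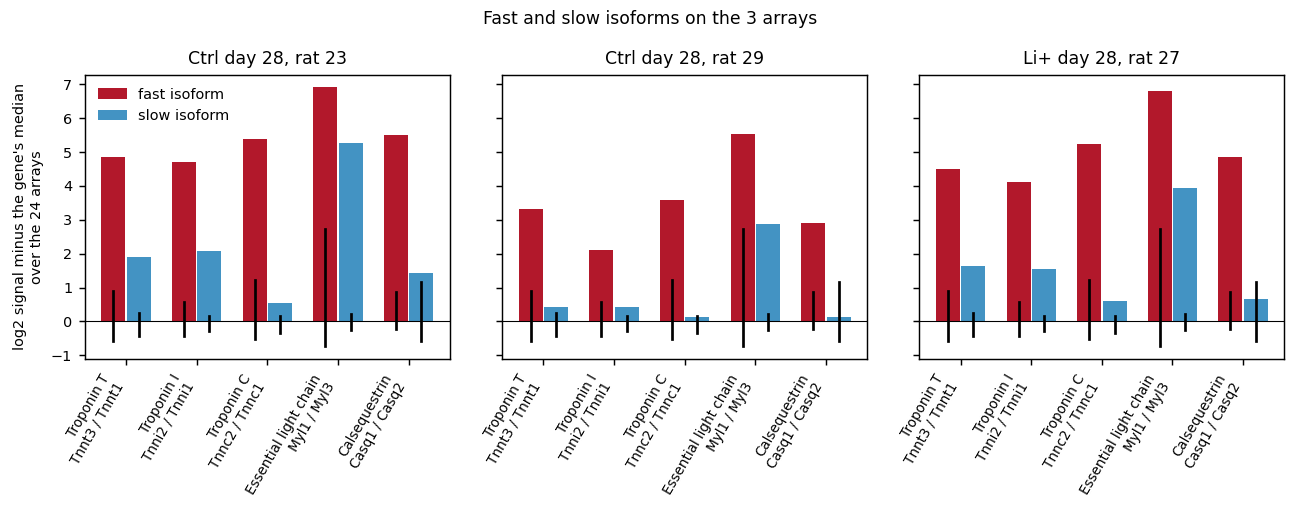
Bars give the log2 signal minus the gene's median over the 24 arrays for the fast (red) and slow (blue) isoform of 5 proteins, with 1 panel for each of the 3 arrays. Black lines span the other 21 arrays. Fast bars exceed slow bars in every pair, with Tnnc2 at 5.38 and Tnnc1 at 0.53 in the left panel.

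Slow genes were not uniformly low. Myl3 was higher by 2.86 or more on all 3 arrays and Myh7 by 1.49 or more, whereas Tpm3, the slow tropomyosin that other cells make in cytoskeletal forms, was between -0.06 and 0.06. Myoz2, the calsarcin of slow fibers, was higher by 2.79, 1.36 and 0.66 (Ctrl rat 23, Li+ rat 27, Ctrl rat 29). On the Ctrl day 7 array of rat 15, where Tnnt3 was higher by 0.90 and Myl11 by 0.94, Tnnt1 was at -0.00, Tnni1 at -0.04, Myh7 at -0.26 and Myl3 at 0.03.

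Other genes of adult muscle were high on the same arrays. Over all 18166 named genes, 54 (0.297%) lay more than 1 above their median on all 3 arrays, of which 21 were members and 33 were not, and 0 lay more than 1 below it on all 3. Of the 33, 20 belong to other muscle lists and 13 to no list. The 10 non-members with the highest lowest difference were Mybpc1 (3.47), Xirp2 (3.26), Myl11 (2.88), Myl3 (2.86), Myom2 (2.72), Nrap (2.56), Cryab (2.40), Tmod4 (2.20), Cox8b (1.96) and Ampd1 (1.89). Mybpc1 is the slow myosin-binding protein C, Xirp2 binds actin at cell junctions of fibers, Nrap is a nebulin-related anchor protein, Myom2 is an M-band protein, Cryab a small heat shock protein that binds desmin, Tmod4 caps thin filaments, Cox8b is a subunit of cytochrome oxidase, and Ampd1 is the AMP deaminase of muscle.

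The other muscle lists showed how far this reached. Of 26 other sarcomere genes measured, 22 lay more than 1 above their median on the Ctrl array of rat 23. On the Li+ array of rat 27 the count was 21 and on the Ctrl array of rat 29 it was 12. Of all 18166 named genes, 241, 157 and 65 lay more than 1 above their median on these arrays in that order. Tpm1, a tropomyosin found in many cells, was below that line at 0.31, 0.43 and 0.17, while Tpm2 was at 2.62, 2.45 and 1.20. Of 20 other calcium and membrane genes, 16, 8 and 2 passed, with Srl, or sarcalumenin, a calcium-binding protein of the reticulum, at 3.68, 3.16 and 1.63 and Asph at -0.16, -0.16 and 0.09. Of 15 other metabolic genes, 13, 11 and 5 passed, among them Pgam2, the muscle phosphoglycerate mutase, at 3.97, 3.16 and 1.61, but not Aldoa, an aldolase also used outside muscle, at 0.48, 0.31 and -0.03.

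Lists of myogenic regulators, of developmental isoforms and of the neuromuscular junction had median differences of at most 0.27 on the 3 arrays. The median of 9 myogenic regulators was 0.15, 0.11 and 0.05 (Ctrl rat 23, Li+ rat 27, Ctrl rat 29), against at most 0.12 on the other arrays. Among them Myf6, or MRF4, the regulator kept on in adult fibers, was at 3.18, 2.40 and 0.70, while Myog, or myogenin, was at 0.15, 0.11 and -0.00, Myod1 at 0.67, 0.34 and -0.06 and Pax7, of satellite cells, at -0.02, 0.10 and 0.05. Of the list of developmental isoforms 5 genes were measured, and only Chrng, the embryonic acetylcholine receptor gamma chain, and Myh8, the perinatal myosin heavy chain, are forms of immature fibers. Chrna1 and Chrnd also belong to the adult receptor, and Myh6 is the heavy chain of the heart. Chrng was at -0.09, -0.03 and 0.27 and Myh8 at 0.12, -0.01 and 0.03. The median of the 5 was 0.13, 0.12 and 0.01, within the range of the other 21 arrays (-0.16 to 0.17). The median of 6 genes of the neuromuscular junction was 0.27, 0.25 and -0.01, against at most 0.15 on the other arrays. Among these 6, Chrnb1 was at 1.07, 0.82 and 0.22 and Chrne at 0.10, -0.05 and -0.02.

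Markers of the labelled tissue were present on all arrays. Col1a1, the main collagen of bone, had log2 signals between 12.8 and 13.7 over the 24 arrays. Bglap, or osteocalcin, was between 11.1 and 12.5, and Ctsk, the cathepsin of osteoclasts, between 12.5 and 13.6. Bglap was lowest on the Li+ array of rat 27, at -0.94 from its median, below its range on the other 21 arrays (-0.79 to 0.38). The median difference of 8 osteoblast genes was 0.10 and 0.09 on the Ctrl arrays of rats 23 and 29 and -0.53 on the Li+ array of rat 27, within the range of the other arrays (-0.65 to 0.37). Of 6 osteocyte genes the median was 0.05, 0.03 and -0.98 on these arrays, and the last value was just below the range of the others (-0.96 to 0.65). On the Li+ array of rat 27, Phex was at -1.39, Pdpn at -1.13 and Dmp1 at -1.12. Each of these lay within its range on the other 21 arrays, and Fgf23 of the same list was higher, at 0.36. The 5 osteoclast genes had a median of -0.09, -0.00 and -0.48, within -1.02 to 0.48.

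Lists of markers of other tissues that lie near muscle or bone had medians within their usual range on the 3 arrays. Medians on the Ctrl arrays of rats 23 and 29 and the Li+ array of rat 27 were 0.02, -0.04 and -0.05 for 6 smooth muscle genes, -0.01, -0.01 and -0.03 for 7 genes of heart alone, and 0.20, -0.03 and -0.21 for 6 tendon genes. They were 0.00, -0.13 and -0.01 for 7 Schwann cell genes and -0.01, -0.45 and -0.17 for 8 adipocyte genes. For marrow they were -0.28, -0.14 and 0.12 for 4 erythroid genes, -0.04, 0.27 and 0.29 for 4 B cell genes and -0.02, -0.04 and 0.10 for 8 neutrophil genes. All of these medians lay within the range of the other 21 arrays. Of the 50 single markers, 5 lay outside it on the Ctrl array of rat 23, 2 on the Li+ array of rat 27 and 1 on the Ctrl array of rat 29. On the first, Lmod1 of smooth muscle (0.29), Nppb of heart (0.17) and Prx of Schwann cells (0.36) were above it and Fabp4 (-0.92) and Pparg (-0.52) of adipocytes below it.

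**Figure D4:**
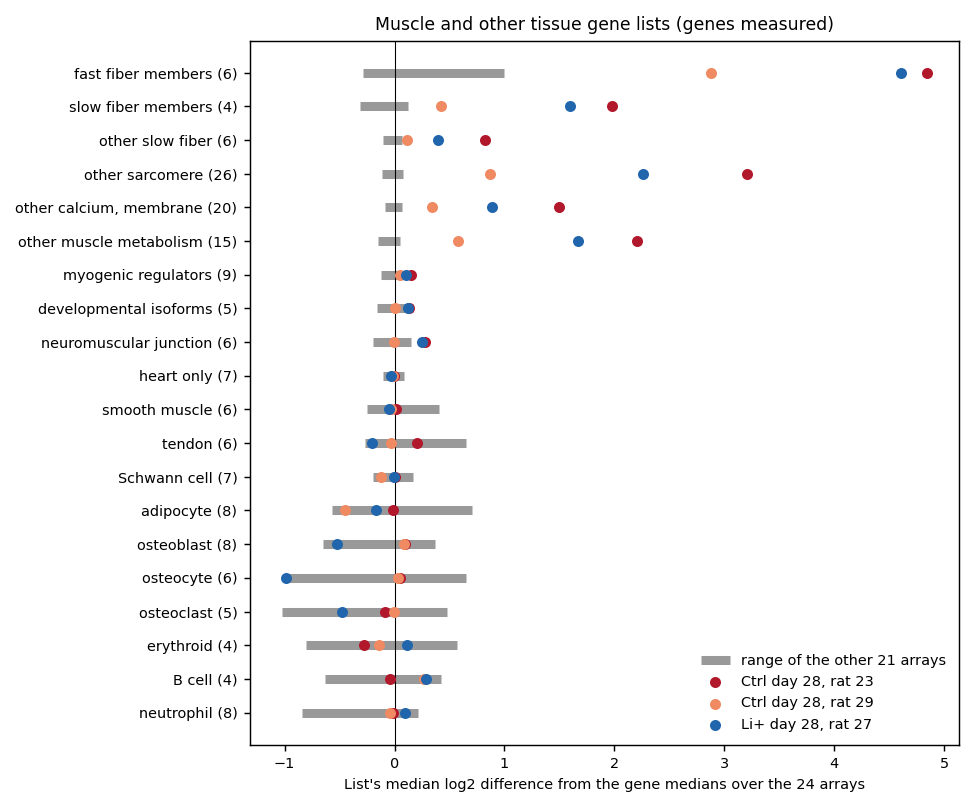
Points give, for each gene list, the median difference of its genes from their medians over the 24 arrays, on the 3 arrays high in muscle genes, and grey bars span the other 21 arrays. Numbers in brackets are genes measured. Lists of adult muscle lie to the right of the bars, while those of bone, marrow, fat, nerve and heart lie within them apart from the osteocyte list on the Li+ array of rat 27 (-0.98).

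The comparisons of the study were then made for these genes with limma, with p-values adjusted over all 36495 probe sets, to see what the 3 arrays do to them. For Li+ against Ctrl, each rat was its own control. At day 7 the 26 members centred on -0.03 (median of the log2 fold changes), with 8 higher and 18 lower with Li+. Without rat 15 the median was 0.05, with 19 higher and 7 lower, and with array weights it was 0.01, with 16 higher and 10 lower. Pvalb, at -0.24 (standard error 0.196), was lowest, and 0 members passed an adjusted p of 0.05, as did 0.00274% of all probe sets. At an unadjusted p under 0.05, 0 members passed, against 1.99% of all probe sets higher and 1.64% lower.

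At day 28 all 26 members had a negative log2 fold change for Li+ against Ctrl, with a median of -0.53, and 12 were lower by over 1.5-fold, against 0.0986% of all probe sets. Actn2 was at -0.84, Ttn at -0.77 (standard error 1.36) and Acta1 at -0.62 (standard error 1.21). In limma 0 members passed an adjusted p (lowest 0.999), as did 0% of all probe sets. At an unadjusted p under 0.05, 0 members passed, against 2.22% of all higher and 2.1% lower. Of the 3 high arrays, 2 were in Ctrl and 1 with Li+. Without rat 27 the median was -1.58, with 22 lower by over 1.5-fold, against 138 of all 36495 probe sets. Without rat 23 it was 0.26, without rat 29 -0.09 and with array weights -0.29, each with 0 lower by over 1.5-fold. Without the 3 arrays it was -0.06, with 9 higher and 17 lower, a value that rests on the 3 rats that keep both arrays (21, 28 and 30).

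Over time in Ctrl, all 26 members were higher at day 28. The median of their log2 fold changes was 1.24, and 21 passed 1.5-fold, against 0.712% of all probe sets. Mb was at 1.80 (standard error 1.05), Ttn at 1.72 and Myot at 1.65. In limma 0 members passed an adjusted p (lowest 0.486, Myh7), against 0.0959% of all probe sets. At an unadjusted p under 0.05, 0 members passed, against 5.51% of all higher and 5.85% lower. Without rat 23 the median was 0.48 and 8 passed 1.5-fold, against 274 of all 36495 probe sets. Without the 3 arrays the median was -0.06. By over 1.5-fold, 0 members were then higher, against 0.88% of all, and 1 was lower, against 1.41%, namely Myl1 at -0.65 (standard error 0.534).

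Over time with Li+, all 26 were higher with a median of 0.68, and 17 passed 1.5-fold, against 0.666% of all. Mb was at 1.06 and Ttn at 1.01, and again 0 members passed an adjusted p in limma (lowest 0.412, Tnnt1), against 0.279% of all. At an unadjusted p under 0.05, 0 members passed, against 8.72% of all higher and 7.38% lower. Without the array of rat 27 the median was -0.01 and 0 passed 1.5-fold. The difference between the time courses had a median of -0.49, with 26 of 26 lower for Li+ and 9 past 1.5-fold, against 0.37% of all. In limma 0 members and 0% of all passed an adjusted p, and 0 members an unadjusted p, against 1.81% of all higher and 1.81% lower. Without rat 23 all 26 were higher for Li+, with a median of 0.32. Without rat 29 the median was -0.05 with 0 lower past 1.5-fold. Without rat 27 it was -1.49 with 22, against 234 of all 36495 probe sets. With array weights it was -0.38 with 0. The count of 9 was 3 without rat 4, 14 without rat 15, 16 without rat 21 and 15 without rat 30. In these fits 170, 206, 186 and 177 of all 36495 probe sets were lower past 1.5-fold. Without the 3 arrays the median was -0.03, again resting at day 28 on 3 rats. Between the arrays of any of the 4 pairs of groups compared, 26 of 26 members overlapped, while 0.0826% (Li+ and Ctrl, day 7), 0.055% (Li+ and Ctrl, day 28), 1.45% (days, Ctrl) and 2.1% (days, Li+) of named genes did not.

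**Figure D5:**
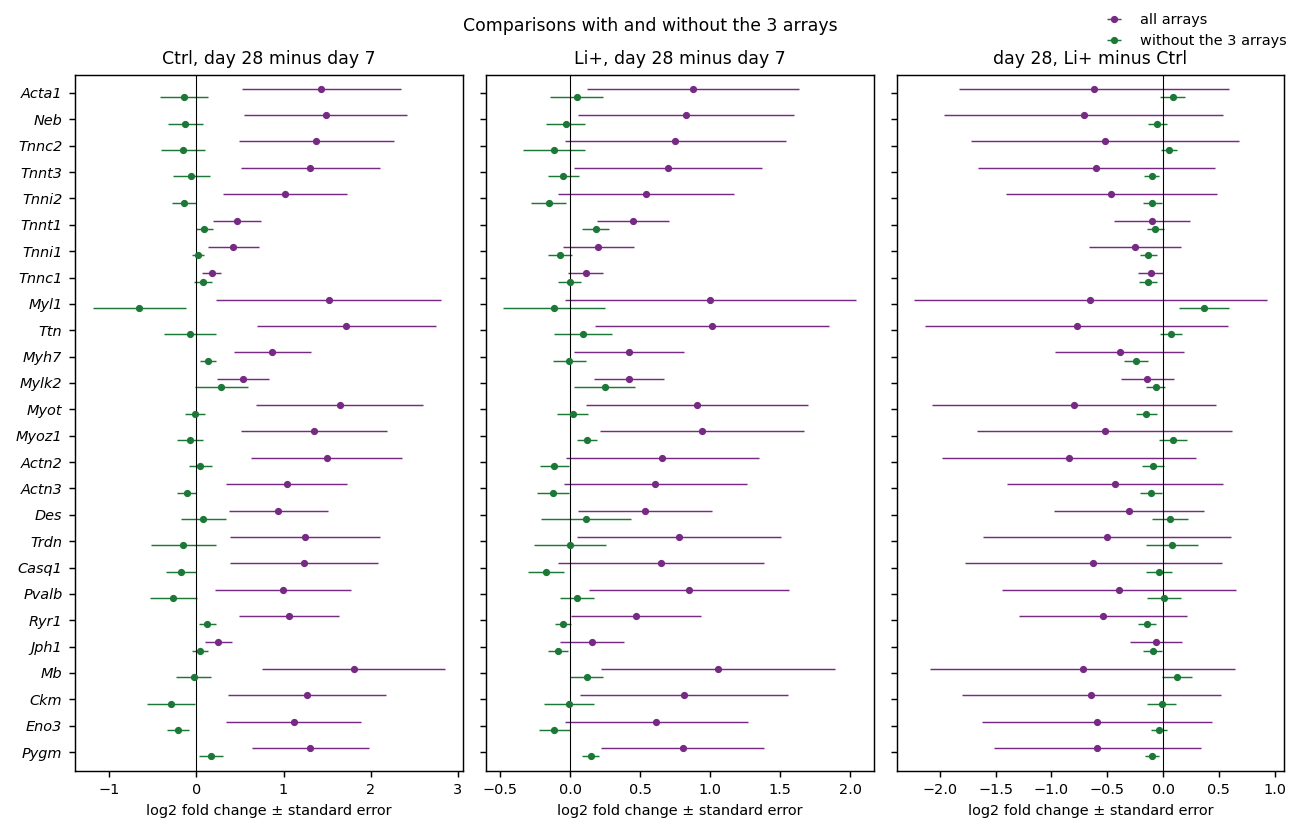
Points give the log2 fold change of each gene with its standard error from limma, with all arrays (purple) and without the 3 arrays high in muscle genes (green). With all arrays the medians are 1.24, 0.68 and -0.53 in the panels from left to right, and without the 3 arrays they lie near 0 with shorter error bars. In the panel of Li+ against Ctrl the green points rest on 3 rats.

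The same comparisons were run for other sarcomere, calcium and membrane, and metabolic genes of muscle. Over time in Ctrl their medians were 0.60, 0.33 and 0.52, and over time with Li+ 0.34, 0.19 and 0.26. For Li+ against Ctrl at day 28 they were -0.30, -0.15 and -0.24. In each of these, 0 genes passed an adjusted p in limma, as did 0.0959%, 0.279% and 0% of all probe sets. At an unadjusted p under 0.05, 1 other sarcomere gene was higher over time in Ctrl, against 5.51% of all probe sets. Over time with Li+, 1 gene of each list was lower, against 7.38% of all, unlike the positive medians. For Li+ against Ctrl at day 28, 0 passed, against 2.22% of all higher and 2.1% lower.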

How the data were processed

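Total RNA of peri-implant bone was hybridized by the authors to Affymetrix Rat Gene 2.0 ST arrays, 1 per sample. The deposited table holds a log2 signal for each probe set and array, made by the authors with RMA in Affymetrix Expression Console 1.1.2. They were used as deposited, 24 arrays in 4 groups of 6, and the genome build behind them is not given in the sources used here. No scan date or batch is given, and the number of arrays per group limits the precision.

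The 190 control probe sets were left out and 36495 were tested with limma 3.58.1 under R 4.3.3 (lmFit, eBayes, Benjamini-Hochberg over all, threshold 0.05), without a filter on signal. Li+ was compared with Ctrl with the rat as a block, days without one, and the difference between time courses as an interaction, again blocked by rat. The labels give each rat 1 array of each implant, so the number pairs the arrays. After group means were removed, the arrays of a rat had a median correlation of 0.279 over probe sets (0.068 to 0.569). The script was tested on simulated data.

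Symbols come from the platform annotation, of which 18511 probe sets carry 1, 575 several and 17409 none. All 33 listed genes were found in the RefSeq gene table. Promoters are from RefSeq for GRCr8. Other steps used python 3.11.15 with pandas 2.3.3, numpy 2.4.6, scipy 1.17.1 and matplotlib 3.10.9. Named were all members, both genes of isoform pairs, up to 4 highest-signal genes of other lists and the 10 non-members with the largest lowest difference on the 3 arrays. A few further list genes were chosen after their values were seen or for their role as markers. These were Srl, Pgam2, Myf6, Myog, Myod1, Myoz2, Tpm2, Mybpc2, Chrng, Chrnb1, Myh8, Fgf23, Bglap and Ctsk. So were the markers of other tissues outside their range on the Ctrl array of rat 23. The members, lists and the 3 arrays were chosen with earlier results of these data known. Alternatives were centring on array medians, a filter on dim probe sets, single-symbol probe sets, the methods' t-test, array weights, leaving out each rat, leaving out the 3 arrays and a fit without the rat. Since each member has 1 probe set, averaging probe sets gives the same values.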

Additional observations from a re-analysis of the deposited data

Results flagged for a closer look

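Some arrays stood apart from the other 5 of their group, by the gap to the nearest array over the group's range (Dixon's ratio, above its critical value for 6 samples, which chance passes in about 1 of 20 groups). For the score of the members the ratio was 0.961 for the Li+ day 28 array of rat 27 and 0.752 for the Ctrl day 7 array of rat 15. Gene by gene, the array of rat 27 stood apart in 23 of 26 members. The Ctrl day 7 array of rat 15 stood apart in 10 members, Mb with the highest ratio (0.886). The Li+ day 7 array of rat 4 stood apart in 3 members (Acta1, Tnnc2 and Tnni2). In Ctrl at day 28 rat 23 stood apart in 2 members (Tnnt1 and Tnni1). Over all 18166 named genes, the share with an array standing apart was 6.85% with Li+ and 7.78% in Ctrl at day 28. At day 7 it was 4.95% with Li+ and 12.8% in Ctrl. The 2 members in Ctrl at day 28 are near the share of that group. Rat 23 was highest there in 26 of 26 members, against 18.6% of named genes. Rat 29 was second in 25, against 17.7%, so for most members the gap was taken to another high array. The members and the 3 arrays were chosen with these high values known, so the ratios describe that choice and are no test of it. The cause of these values was not tested.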

How the results depend on the processing

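At an adjusted p in limma, 0 members passed in any of the 5 comparisons under any alternative run. The methods' t-test gave 0 members at its own threshold and 0 after Benjamini-Hochberg adjustment in each comparison. At an unadjusted p under 0.05 the count of members was 0 in all 5 with all arrays. With array weights it was 1 higher over time in Ctrl, against 3372 of all 36495 probe sets higher. Without the 3 arrays it was 1 higher over time with Li+ (Pygm, unadjusted p = 0.0304 in limma, adjusted 0.322), against 2672 of all. For Li+ against Ctrl at day 28, leaving out 1 rat gave 0 to 3 members lower. The 3 came without rat 27, against 763 of all 36495 probe sets lower. Over time in Ctrl it gave 0 to 3 higher, with 3 without rat 28, against 1751 of all. Over time with Li+ it gave 0 to 1 higher, with 1 each without rats 10 and 27, against 3719 and 2672 of all. In the difference between the time courses it gave 0 to 3 lower, with 3 without rat 27, against 613 of all. With the difference taken from the mean over the arrays, the score was 0.18 for the Ctrl day 7 array of rat 15 and -0.13 for the Li+ day 7 array of rat 4, since the 3 high arrays raise the mean. Leaving out 1 rat moved the median over the members between -0.10 and 0.05 (Li+ against Ctrl, day 7), -1.58 and 0.26 (Li+ against Ctrl, day 28), 0.48 and 1.54 (time, Ctrl), -0.01 and 0.85 (time, Li+) and -1.49 and 0.32 (difference). The fit with no replicate block (the rat left out) changed no call in Li+ against Ctrl or in the difference.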
